A study of Mus musculus with 15 samples.

Results

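Reprogrammed liver cells of mice fed DDC were compared with the biliary cells of mice on the same diet, gene by gene. The comparison took 6 of the 15 RNA sequencing libraries of the series, 3 of reprogrammed cells and 3 of biliary cells, as their labels name them. It covered 13905 of the 24493 genes in the deposited table, namely those that reached at least 1 TPM in at least 3 of the 15 libraries. TPM is a gene's share of the transcripts of a library, set to a fixed total. TPM keep no count of reads, and the sequencing depth behind them is unknown.

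All mice in the series received AAV-TBG-Cre at 4 weeks of age to label cells. This virus carries Cre recombinase under the promoter of thyroxine binding globulin, a gene of hepatocytes. The DDC groups ate chow with DDC, a porphyrin-forming agent that injures bile ducts, from 5 weeks of age for 4 weeks, and their hepatocytes formed a further group of 3 libraries. The other 6 libraries came from hepatocytes and biliary cells of mice that got the virus but no DDC. Cells were sorted from the liver and were not cultured. The series title calls the reprogrammed cells reprogrammed hepatocytes. The labels give neither the mouse strain, the reporter allele nor the sort markers. They do not say that replicates came from separate animals, and each p-value here reflects the spread among libraries, which may be technical.

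Hepatocytes and the biliary epithelial cells that line bile ducts arise from a common precursor in the fetal liver. Hepatocytes make plasma proteins and bile acids and run the urea cycle and gluconeogenesis under factors such as HNF4A. Biliary cells carry keratins 7 and 19, a primary cilium and tight junctions, and they secrete into bile under factors such as SOX9 and GRHL2. After lasting duct injury, hepatocytes can take on biliary genes, a change described as reprogramming.

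Every value below is a scaled TPM, the TPM divided by a factor that puts the libraries on a common level. Differences are on the scale of log2(scaled TPM + 1), reprogrammed minus biliary. A gene was called where the limma adjusted p was under 0.05 and the difference was at least 1 in size. Words such as rose or fell are used of called genes only and refer to reprogrammed cells relative to DDC biliary cells.

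The libraries of both groups varied in how much of the hepatocyte program they held. For 175 hepatocyte function genes the median level, as a percentage of the DDC hepatocyte mean, was 27.4, 57.9 and 35.4 in reprogrammed libraries 1, 2 and 3. It was 16.3, 23.9 and 10.8 in the biliary libraries of the same numbers. Every reprogrammed library thus lay above every biliary library, with reprogrammed library 2 the highest and biliary library 3 the lowest. Untreated biliary libraries also held transcripts of these genes, at a median of 32.7, 24.4 and 25.8 percent of the same DDC hepatocyte mean, so that untreated biliary library 1 lay above reprogrammed library 1. Relative to the untreated hepatocyte mean the untreated biliary medians were 21.9, 16.1 and 16.8 percent, and the reprogrammed medians 19.7, 41.3 and 25.4 percent. A mixture of cells and cells of intermediate state cannot be told apart in such libraries, and neither can fewer cells of a type and less RNA per cell. The transcripts Mir6236, Rn45s and Lars2, of which Rn45s is the ribosomal RNA precursor, took 2.66 to 3.45 percent of the deposited TPM in reprogrammed libraries and 7.47 to 9.02 percent in biliary ones. The part of this in the results was not tested.

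Most genes that rose in reprogrammed cells were genes of untreated hepatocytes, and most that fell were genes of untreated biliary cells, though a minority of either kind was called. Of the 13905 genes, 386 (2.78 percent) rose and 102 (0.734 percent) fell. The median difference was 1.20 among the genes that rose and -1.11 among those that fell, and 5 and 4 genes respectively reached a difference of 2 in size. Libraries of the same number differed in the called direction at all 3 numbers for 385 of the 386 genes and for all 102. Over all 13905 genes 4031 were higher and 4918 lower at all 3 numbers. The calls were made on these same libraries, so this agreement describes the called genes and adds no support. The 2 groups did not overlap for 342 of the genes that rose and for 100 of those that fell, and over all 13905 genes 2046 lay above and 2435 below without overlap. In the TPM as deposited, where the median of all genes lay at -0.34 and not at -0.06, 120 genes were higher and 576 lower, against 386 and 102 with the scaling.

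The calls depended on single libraries. Without biliary library 3 the count was 103 instead of 488, of which 56 rose and 47 fell, and without reprogrammed library 2 it was 138, of which 100 rose and 38 fell. Without reprogrammed library 1 it was 830. In every one of these fits all 488 genes kept the sign of their difference, which their selection at a size of at least 1 made likely. Of the 488, 68 passed in each of the 6 fits that left out 1 library, 50 that rose and 18 that fell. Of the 99 called genes chosen for naming by rule, 23 passed in each of those fits, while 66 lost the call without biliary library 3 and 60 without reprogrammed library 2. A fit of the 6 libraries alone called 6 genes, with 4 residual degrees of freedom in place of 10. With the 9 DDC libraries the fit called 7. The main fit pools 1 spread per gene over all 5 groups, so each adjusted p also rests on the untreated libraries. Those groups had a median SD per gene of 0.114 and 0.148 on the log2 scale, against 0.196 to 0.248 in the DDC groups. The part of this in the counts was not tested.

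Untreated cells gave a sorting of the genes from libraries that the comparison does not hold. Both came from the same fit with the same spread per gene, so their calls are not independent. There 2999 genes (21.6 percent) were higher in biliary cells than in hepatocytes, called biliary genes here, and 2173 (15.6 percent) were lower, called hepatocyte genes. In the TPM as deposited this split was 7350 and 470. Of the 386 genes that rose in reprogrammed cells, 363 (94.0 percent) were hepatocyte genes, which is 16.7 percent of all hepatocyte genes. Of the 102 that fell, 76 (74.5 percent) were biliary genes, or 2.53 percent of all biliary genes. Hepatocyte genes had a median difference of 0.62 and 95.2 percent of them lay above 0. Biliary genes had a median of -0.41 and 91.8 percent lay below 0, and the 8733 other genes had a median of -0.05.

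The size of the difference moved with how far apart the untreated cell types were over most of the range. Among the 726 genes lower by 2 to 3 in untreated biliary cells, 42.6 percent rose, with a median difference of 1.10. Among the 1532 genes lower there by 1 to 2, 3.52 percent rose, with a median of 0.49. On the biliary side the median went from -0.33 for genes higher by 1 to 2 in untreated biliary cells (1681 genes) to -0.50 for 2 to 4 (1089 genes) and -0.63 for 4 to 6 (301 genes, 8.97 percent fell). It went no further beyond that, at -0.63 for 6 to 20 (64 genes, 7.81 percent fell). The 9 genes lower by 3 to 4 in untreated biliary cells had a median of 0, and 11.1 percent of them rose.

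**Figure D1:**
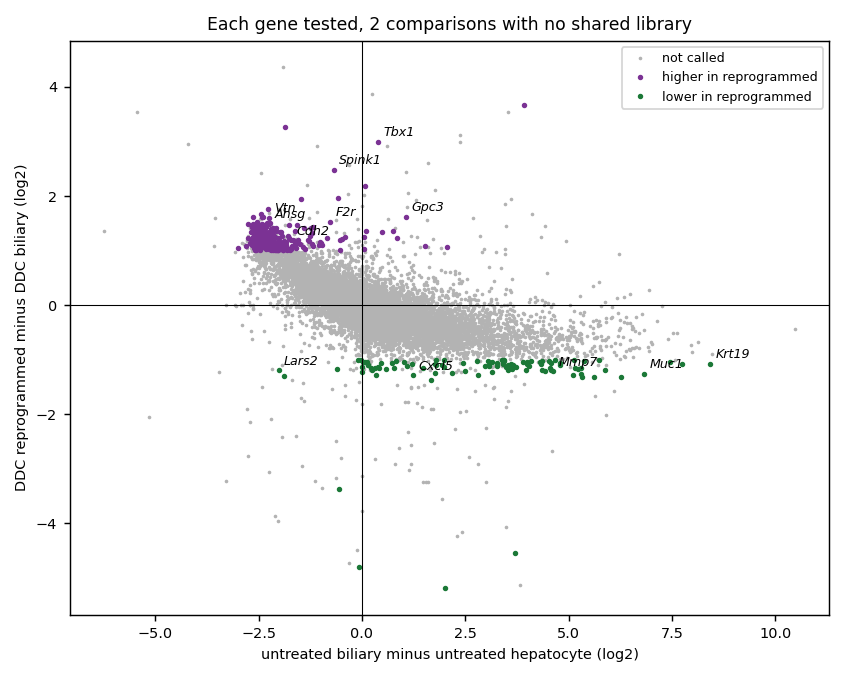
Each point is 1 of the 13905 genes, with the log2 difference of untreated biliary minus untreated hepatocyte cells on the x axis and of DDC reprogrammed minus DDC biliary cells on the y axis. Purple genes (386) rose and green genes (102) fell in reprogrammed cells, and most purple points lie on the left, where untreated hepatocytes are higher.

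The markers of both cell types were checked in every library. Vtn, which encodes the plasma adhesion protein vitronectin (chromosome 11, 78499091 to 78502324, GRCm38), stood at 1109, 1558 and 1206 in reprogrammed libraries 1, 2 and 3 and at 490.1, 583 and 260.3 in biliary ones. DDC hepatocytes held 2672, 2645 and 3050.4. The 3 groups did not overlap, and Vtn rose by 1.60 (SE 0.25, limma adjusted p = 0.00465), a call kept without any 1 library. Ahsg, which encodes the plasma glycoprotein fetuin-A (chromosome 16, 22891277 to 22899449), was 4020.0, 7952 and 6358 against 2009, 2956 and 1513, with no overlap. It rose by 1.50 (adjusted p = 0.0121), a call lost without biliary library 3 (adjusted p = 0.0605) or reprogrammed library 2 (adjusted p = 0.0548). Alb, for serum albumin, was 15174, 56023 and 29965 against 9939, 22495 and 9606. The groups overlapped, since biliary library 2 exceeded reprogrammed library 1, and the difference of 1.19 did not pass (adjusted p = 0.198).

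Krt19, for keratin 19 of duct epithelium (chromosome 11, 100140810 to 100148665), stood at 243, 234 and 314 in reprogrammed and 465, 533 and 672 in biliary libraries. All 3 reprogrammed values lay below the biliary ones, and DDC hepatocytes were at 1.41, 1.64 and 1.45. Krt19 fell by 1.07 (adjusted p = 0.0116) and lost the call without biliary library 3 (adjusted p = 0.0596) or reprogrammed library 2 (adjusted p = 0.0544). Epcam, an adhesion molecule of biliary and progenitor cells, was 293, 212 and 288 against 461, 441 and 528. It was lower in all 3 reprogrammed libraries, with a difference of -0.86 that passed the p threshold (0.00298) and not the size threshold. Krt7, the other duct keratin, was 141, 166 and 214 against 206, 327 and 384. Reprogrammed library 3 lay just inside the biliary range, and the difference of -0.78 (adjusted p = 0.0354) was also under 1 in size. Duct keratins and Epcam were thus present in both groups and near 0 in DDC hepatocytes, and hepatocyte transcripts were present in both groups as well.

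**Figure D2:**
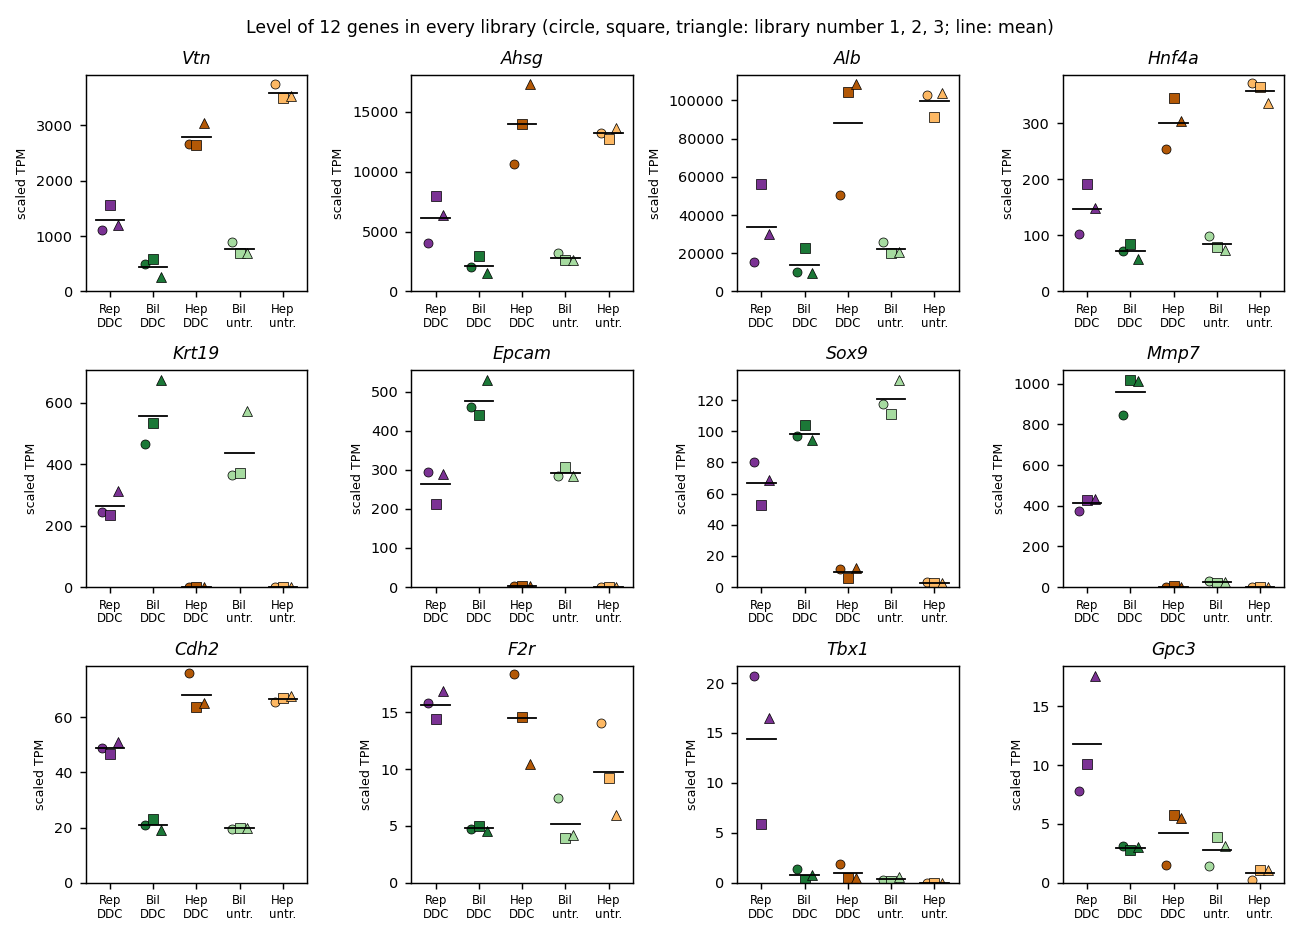
Scaled TPM (y axis, from 0, a separate scale for each gene) of 12 genes in every library of the 5 groups on the x axis, with reprogrammed cells in purple, biliary cells in green and hepatocytes in orange. Circles, squares and triangles are libraries 1, 2 and 3 and the line is the mean of 3; Vtn and Cdh2 show reprogrammed values between those of the other DDC groups, and Tbx1 shows them above.

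Genes of liver function made up 86 of the 386 genes that rose. The 175 genes were hepatocyte genes taken from 9 lists, and 174 of them had a difference above 0, with a median of 1.20 (quartiles 1.05 and 1.31). The median was -0.06 over all genes tested and 0.62 over all 2173 hepatocyte genes, of which 95.2 percent lay above 0 and 16.7 percent rose. The 726 genes lower by 2 to 3 in untreated biliary cells had a median of 1.10, and 42.6 percent of them rose. The shift was thus shared by hepatocyte genes in general. Of the 175 genes 0 fell. The count of 86 was 12 without biliary library 3, 15 without reprogrammed library 2, 57 without reprogrammed library 3 and 126 without reprogrammed library 1, and it was 136 with the library number as a block. The median ratio of a reprogrammed library to the biliary library of the same number was 1.58, 2.49 and 3.20 at numbers 1, 2 and 3. Reprogrammed cells held a median of 40.2 percent of the DDC hepatocyte level (quartiles 37.6 and 43.7) and biliary cells 16.7 percent (15.7 and 19.8). These quartiles are of means over 3 libraries. Within reprogrammed libraries 1, 2 and 3 they were 20.9 and 38.6, 51.5 and 64.3, and 31.8 and 42.3 percent. Within the biliary libraries they were 12.5 and 22.5, 21.2 and 27.3, and 9.59 and 13.3 percent.

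**Figure D3:**
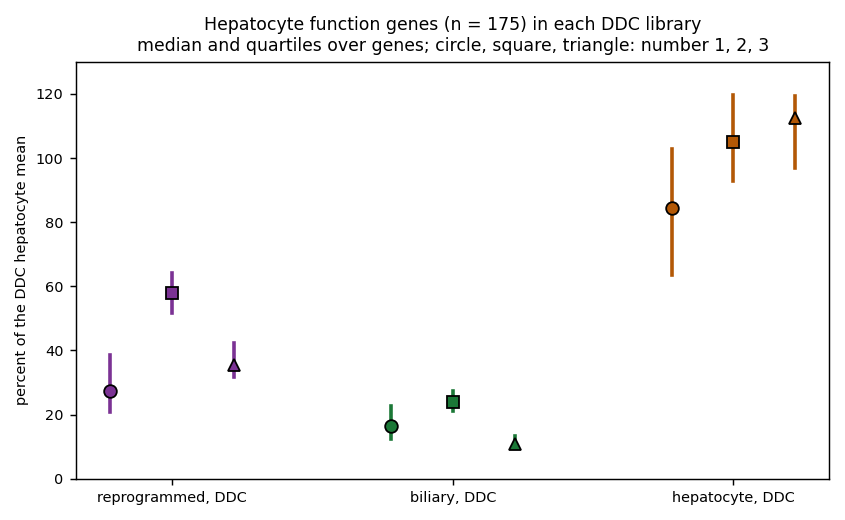
Level of the 175 hepatocyte function genes in each DDC library, as a percentage of the DDC hepatocyte mean of the same gene (y axis); symbols are the median over genes and bars the quartiles. The reprogrammed medians of 27.4, 57.9 and 35.4 lie between the biliary medians of 16.3, 23.9 and 10.8 and the hepatocyte medians of 84.5, 105 and 113.

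Among secreted proteins, 19 of 31 plasma protein genes rose (29 with the block), with a median of 1.29, and 0 fell. Of all genes tested, 2.78 percent rose. Coagulation factors and inhibitors rose at 19 of 24 genes (median 1.29). F12, for factor XII that starts the contact pathway, was 165, 350.2 and 259 against 89.1, 130.5 and 58.9. Its groups did not overlap and it rose by 1.47 (adjusted p = 0.00902). Fgb, for the fibrinogen beta chain, rose by 1.43 (0.0273), with biliary library 2 just above reprogrammed library 1. Kng2, a kininogen gene, was 182, 482 and 316 against 81.9, 179 and 65.1, which gave 1.61 (0.0188). Biliary library 2 lay just under reprogrammed library 1 for Kng2. Complement genes rose at 12 of 20 (median 1.13), among them C1s1, a protease of the classical pathway (1.41, adjusted p = 0.00829), and Mbl1, a mannose-binding lectin (1.37, 0.0178). The complement gene C3 was not called, at a difference of 0.71 (adjusted p = 0.0762). Apolipoprotein genes rose at 12 of 17 (median 1.31), with Apom at 249, 272 and 236 against 142, 98.6 and 53. Apom did not overlap between the groups and rose by 1.47 (0.00912). F12, C1s1 and Apom kept their calls without any 1 library. Fgb lost its call without biliary library 1 (adjusted p = 0.0682), biliary library 3 (adjusted p = 0.128), reprogrammed library 2 (adjusted p = 0.121) or reprogrammed library 3 (adjusted p = 0.0694). Kng2 lost it without biliary library 3 (adjusted p = 0.0947), reprogrammed library 2 (adjusted p = 0.0882) or reprogrammed library 3 (adjusted p = 0.0528), and Mbl1 without biliary library 3 (adjusted p = 0.0698) or reprogrammed library 2 (adjusted p = 0.0718).

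Acute phase genes rose at 11 of 23 (median 1.21), against 2.78 percent of all genes tested. Several of them stand in the plasma protein and complement lists too. Of these 11, 0 passed in each of the 6 fits that left out 1 library. Saa1, for serum amyloid A, was 102, 203 and 223 against 55.2, 66.2 and 42.5 and rose by 1.61 (adjusted p = 0.0188). Its lowest reprogrammed value was above its highest biliary value. Lcn2, for the iron-scavenging lipocalin 2, differed by -0.03 (adjusted p = 0.972), with means of 1842 and 1968, and DDC hepatocytes held 1861. Saa1 lost its call without biliary library 3 (adjusted p = 0.0881), reprogrammed library 2 (adjusted p = 0.0823) or reprogrammed library 3 (adjusted p = 0.0661).

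The genes called in the metabolic lists rose as well, against a share of 2.78 percent that rose among all genes tested. Amino acid breakdown and the urea cycle rose at 8 of 25 genes (20 with the block; median 1.20), and gluconeogenesis and glycogen at 9 of 16 (median 1.24). Haao, an enzyme of tryptophan breakdown, was 91.7, 185 and 117 against 49.7, 68.9 and 31.9 with no overlap and rose by 1.38 (adjusted p = 0.0103). Fbp1, the fructose bisphosphatase of gluconeogenesis, was 291, 356 and 332 against 169, 137 and 82.6. It too was separate between the groups and rose by 1.38 (0.00714), and Pygl, the liver glycogen phosphorylase, rose by 1.31 (0.00917). Cps1, the entry enzyme of the urea cycle, was 327, 1489 and 789 against 254, 637 and 320.0. Biliary library 2 exceeded reprogrammed library 1, and the difference of 0.96 did not pass (adjusted p = 0.194). Agxt, the aminotransferase that clears glyoxylate, was 71, 155 and 127 against 39.7, 56 and 37.6. Its groups were separate, and it rose by 1.33 (0.0186), a call lost without biliary library 3 (adjusted p = 0.0841), reprogrammed library 2 (adjusted p = 0.0866) or reprogrammed library 3 (adjusted p = 0.0591). Haao, Fbp1 and Pygl kept their calls without any 1 library.

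Bile acid synthesis and transport rose at 5 of 22 genes (12 with the block, median 1.08), against 2.78 percent of all genes tested. Abcb4, the phospholipid exporter of the canalicular membrane, was 92.3, 183 and 116 against 58.1, 74.4 and 32.6, separate between the groups, and rose by 1.25 (adjusted p = 0.0143). Xenobiotic P450 genes rose at 5 of 24 (17 with the block; median 1.07), led by Cyp1a2 at 288, 400.4 and 330.1 against 175, 156 and 104. No reprogrammed value of Cyp1a2 fell within the biliary range and the difference was 1.25 (0.00576). Cyp2e1, which oxidises ethanol, was 635, 1525 and 683 against 341, 611 and 245 and rose by 1.23 (adjusted p = 0.0465), a call lost without biliary library 1 (adjusted p = 0.0962), biliary library 3 (adjusted p = 0.197), reprogrammed library 2 (adjusted p = 0.192) or reprogrammed library 3 (adjusted p = 0.0639). Reprogrammed library 1 lay just above biliary library 2, the highest of its group. Fatty acid oxidation and ketogenesis rose at 5 of 20 (9 with the block; median 0.93). Cholesterol synthesis had 0 of 23 genes called in either direction by limma (7 at an unadjusted p under 0.05), a median of 0.53 and 22 differences above 0. Cyp1a2 kept its call without any 1 library, and Abcb4 lost it without biliary library 3 (adjusted p = 0.0606) or reprogrammed library 2 (adjusted p = 0.0642).

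Several members of the 175 genes lay away from their median difference. Slco1a1, an organic anion transporter, was the 1 gene below 0, at -0.05. It was under 1 in every DDC library, hepatocytes included, and 458, 478 and 386 in untreated hepatocytes. The next lowest differences were those of Cyp2d22 (0.31) and of genes for fatty acid oxidation that duct cells also expressed. Acadl, a long-chain acyl-CoA dehydrogenase, stood at 61.7 percent of the hepatocyte level in biliary cells and 76.7 percent in reprogrammed cells, a difference of 0.32. Hadhb, a subunit of the trifunctional protein, had 0.44, and Cpt1a, which brings fatty acids to mitochondria, 0.53. The highest was Sds, for serine dehydratase, at 1.69. These genes were picked by their rank after the values were seen.

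Liver transcription factors had a median difference of 0.82, and of 21 tested 4 rose and 0 fell. Of all genes tested, 2.78 percent rose and 0.734 percent fell. Hnf4a, the nuclear receptor that maintains hepatocyte genes (chromosome 2, 163506808 to 163572910), was 103, 191 and 149 against 71.9, 84.7 and 58.4. The groups were separate and it rose by 1.0019 (adjusted p = 0.0119). Creb3l3, a factor of fasting and the acute phase, rose by 1.40 (0.0174), Nr1h3, the sterol receptor LXR alpha, by 1.07 (0.0141) and Ppara, the fatty acid receptor, by 1.01 (0.0409). Cebpa, at 107 against 56.5, passed on p alone (0.91, adjusted p = 0.00842). Onecut2, a factor shared with duct cells, differed by -0.78 (adjusted p = 0.00637), in the other direction and under the size threshold. Hnf4a lost its call without biliary library 3 (adjusted p = 0.0613), reprogrammed library 2 (adjusted p = 0.0543) or reprogrammed library 3 (difference 0.97), Creb3l3 without biliary library 3 (adjusted p = 0.0714) or reprogrammed library 2 (adjusted p = 0.061), and Nr1h3 without biliary library 3 (adjusted p = 0.0583) or reprogrammed library 2 (adjusted p = 0.0639). Ppara lost it without biliary library 1 (adjusted p = 0.067), biliary library 3 (adjusted p = 0.183), reprogrammed library 2 (adjusted p = 0.176) or reprogrammed library 3 (adjusted p = 0.0711).

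Upstream sequences of genes that moved are shown because the letters bound by liver and epithelial factors can be seen in them. Each is the 250 bases before the RefSeq transcription start on GRCm38.p6, read on the strand of the gene, and capitals mark matches to motifs of HNF1 (GTTAATNAT), HNF4A (CAAAGNNCA), GRHL (AACCNGTT) or TEAD (CATTCCA) on either strand. Afp, Kng2 and Agxt rose, and Muc1 and Ankrd1 fell. Each of them held a match, so they do not stand for all genes that moved. Vtn, F12, Apom and Cyp1a2 rose and held no match to these motifs in the window. Plagl1 and Bcl2a1d fell and held an HNF4A match. Afp lies on the plus strand at chr5:90490464-90490713, Kng2 on the minus strand at chr16:23029102-23029351, Agxt on the plus strand at chr1:93134990-93135239, Muc1 on the plus strand at chr3:89228806-89229055 and Ankrd1 on the minus strand at chr19:36119845-36120094.
Afp: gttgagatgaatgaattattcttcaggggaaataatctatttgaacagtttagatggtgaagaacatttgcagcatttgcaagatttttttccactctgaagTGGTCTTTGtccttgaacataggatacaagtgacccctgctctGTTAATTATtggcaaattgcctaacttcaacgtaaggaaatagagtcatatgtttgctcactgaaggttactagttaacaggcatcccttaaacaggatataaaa
Kng2: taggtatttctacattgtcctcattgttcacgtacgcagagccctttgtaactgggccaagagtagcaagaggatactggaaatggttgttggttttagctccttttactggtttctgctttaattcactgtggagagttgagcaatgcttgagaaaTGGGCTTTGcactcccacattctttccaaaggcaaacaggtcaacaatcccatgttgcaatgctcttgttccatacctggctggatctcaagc
Agxt: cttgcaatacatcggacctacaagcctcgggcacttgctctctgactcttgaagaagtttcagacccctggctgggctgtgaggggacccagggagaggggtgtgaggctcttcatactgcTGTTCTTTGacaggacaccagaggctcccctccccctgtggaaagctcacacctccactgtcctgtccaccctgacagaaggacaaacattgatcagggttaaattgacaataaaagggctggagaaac
Muc1: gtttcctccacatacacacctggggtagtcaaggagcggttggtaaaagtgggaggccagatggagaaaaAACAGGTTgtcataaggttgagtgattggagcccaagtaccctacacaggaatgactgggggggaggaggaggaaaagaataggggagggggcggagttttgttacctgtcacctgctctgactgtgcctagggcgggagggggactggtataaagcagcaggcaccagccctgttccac
Ankrd1: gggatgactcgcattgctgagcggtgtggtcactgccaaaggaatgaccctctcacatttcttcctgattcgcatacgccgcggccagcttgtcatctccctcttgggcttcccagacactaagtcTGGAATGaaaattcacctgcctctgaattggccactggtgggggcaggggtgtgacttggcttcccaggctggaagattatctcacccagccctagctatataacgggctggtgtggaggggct

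Afp held both an HNF4A match, at -148 to -140 from the start, and an HNF1 match at -105 to -97. Kng2 had an HNF4A match at -93 to -85, Agxt had one at -129 to -121, Muc1 a GRHL match at -180 to -173 and Ankrd1 a TEAD match at -124 to -118. No matches overlapped each other in these stretches, and matches to C/EBP and AP-1 letters are not capitalised. Of 22862 promoters with 1 entry per symbol, 8489 belonged to genes tested, 232 to genes that rose and 56 to genes that fell. The HNF1 letters stood in 0.814 percent of all promoters and in 6.03 percent of those of genes that rose, and the HNF4A letters in 5.51 and 17.7 percent. C/EBP letters (TTGCNNAA) stood in 9.60 percent of all and 20.3 percent of those that rose. For genes that fell the shares were 0 percent for HNF1, 10.7 percent for HNF4A and 10.7 percent for C/EBP, or 0, 6 and 6 of 56 promoters. GRHL letters stood in 1.66 percent of all promoters and 5.36 percent of those that fell, TEAD letters in 3.78 and 7.14 percent, and AP-1 letters (TGANTCA, which read the same on both strands) in 6.96 and 7.14 percent. The shares among genes that fell rest on only 3, 4 and 4 of 56 promoters. Among genes that rose, GRHL, TEAD and AP-1 letters stood in 0.862, 3.02 and 6.47 percent. Among the promoters of genes tested the shares were 0.695 percent for HNF1, 4.89 percent for HNF4A, 7.59 percent for C/EBP, 1.59 percent for GRHL, 2.87 percent for TEAD and 4.43 percent for AP-1. These shares describe letters in the window and were not tested.

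Biliary identity genes were called in 1 direction, against a background of 0.734 percent of all genes that fell. Of 25 biliary markers, 4 fell, Krt19 among them, and 0 rose (median -0.68), and 23 had differences below 0. Muc1, a mucin of the apical membrane (chromosome 3, 89229057 to 89233381), was 65.6, 24.5 and 36.8 against 145, 60.0 and 96.6. Reprogrammed library 1 exceeded biliary library 2, and Muc1 fell by 1.25 (adjusted p = 0.0246). Tspan8, a tetraspanin, fell by 1.07 (0.0311), and Sctr, the secretin receptor that drives bicarbonate secretion of ducts, by 1.03 (0.0249). Keratins 8 and 18, which hepatocytes share, were not called: Krt8 differed by 0.14 (adjusted p = 0.768) and Krt18 by 0.09 (0.839). Spp1, for osteopontin, was 9625, 3623 and 6704 against 11245, 6214 and 8432, overlapped and differed by -0.44 (adjusted p = 0.448). Muc1 lost its call without biliary library 1 (adjusted p = 0.0709), biliary library 3 (adjusted p = 0.0917), reprogrammed library 2 (adjusted p = 0.11) or reprogrammed library 3 (adjusted p = 0.0695). Tspan8 lost it without biliary library 1 (adjusted p = 0.09), biliary library 3 (adjusted p = 0.12), reprogrammed library 2 (adjusted p = 0.139) or reprogrammed library 3 (adjusted p = 0.0723), and Sctr without biliary library 1 (adjusted p = 0.0694), biliary library 3 (adjusted p = 0.0795), reprogrammed library 2 (adjusted p = 0.108) or reprogrammed library 3 (adjusted p = 0.0622).

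Of 26 biliary and epithelial transcription factors, 1 fell, against 0.734 percent of all genes tested. The factor that fell was Grhl2, the grainyhead factor of epithelial junctions (chromosome 15, 37233036 to 37363569), at 8.15, 5.81 and 7.79 against 15.5, 13.6 and 18. Its groups were separate, it fell by 1.02 (adjusted p = 0.00289), and DDC hepatocytes were at or near 0. It missed the size threshold without biliary library 3 (difference -0.91) or reprogrammed library 2 (difference -0.89). Sox9 was 80.1, 52.4 and 68.6 against 97.1, 104 and 94.4, all reprogrammed values lying below, and its difference of -0.57 did not pass (adjusted p = 0.105). The mean of Sox9 in DDC hepatocytes was 9.69.

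Most genes of epithelial structure were not called, as held for all genes tested, of which 0.734 percent fell and 2.78 percent rose. Of 35 genes of tight junctions, desmosomes and polarity, 3 fell and 1 rose (median -0.32). Esrp1, which directs epithelial splicing, was 13.7, 15.2 and 13.4 against 28.3, 36.9 and 36.1, with a gap between the groups, and fell by 1.19 (adjusted p = 0.000975). Cldn8, a claudin, was 8.18, 5.08 and 6.31 against 19.5, 14.7 and 18.6. It also lay fully below and fell by 1.32 (0.00233), and Ap1m2, an adaptor for basolateral sorting, fell by 1.15 (0.00455). Cldn1, a claudin that hepatocytes express, rose by 1.14 (0.0204). None of 32 genes of the primary cilium and polycystic disease was called by limma at this rule (15 had an unadjusted p under 0.05), the median was -0.35 and 30 differences were below 0. Pkhd1, for fibrocystin of the biliary cilium, came nearest to the size threshold at -0.99 (adjusted p = 0.0302). Of 21 genes of duct secretion and transport, 4 fell, namely Muc1, Sctr, the chloride channel gene Ano1 (by 1.19, 0.00516) and the cotransporter gene Slc12a2, and Pigr, the receptor that carries IgA into bile, rose by 1.16 (0.0299). Esrp1, Cldn8 and Ano1 kept their calls without any 1 library. Cldn1 lost its call without biliary library 3 (adjusted p = 0.0985) or reprogrammed library 2 (adjusted p = 0.0882), Pigr without biliary library 1 (adjusted p = 0.0567), biliary library 3 (adjusted p = 0.143), reprogrammed library 2 (adjusted p = 0.13) or reprogrammed library 3 (adjusted p = 0.0647) and Ap1m2 without reprogrammed library 2 (difference -0.94).

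A set of 369 genes was then taken that DDC hepatocytes hardly express, chosen after the values were seen. They were biliary genes with a DDC biliary mean of at least 10 and a DDC hepatocyte mean under 5 percent of it. Reprogrammed cells held a median of 56.9 percent of the biliary level (quartiles 50.1 and 65.8), and 69.2, 48.3 and 53.1 percent at library numbers 1, 2 and 3. The choice used the DDC biliary values, which are 1 side of the comparison, so these percentages describe the set and support nothing further. The means of 4 genes were above those of biliary cells, namely Pdlim4 (115 percent), Tead2 (105 percent), Mdk (104 percent) and Grb10 (100.2 percent), none of them called.

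Part of what fell was low in untreated ducts and high in DDC biliary cells. Of the 102 genes that fell, 30 had an untreated biliary mean under 20 percent of the DDC biliary mean. The DDC biliary values also entered the call, and the share over all genes was not counted, so this count only describes the genes that fell. Mmp7, a matrix protease of injured epithelium picked after its values were seen, was 376, 427 and 434 in reprogrammed and 847, 1016 and 1014 in biliary libraries, against an untreated biliary mean of 24.1. All 3 reprogrammed values were close together and below the biliary ones, and Mmp7 fell by 1.21 (adjusted p = 0.0032), also without any 1 library. Cxcl5, a neutrophil chemokine, was 102, 101 and 44.8 against 234, 244 and 119.7 and 1.62 in untreated ducts. The groups were separate, though biliary library 3 lay near the reprogrammed values, and Cxcl5 fell by 1.29 (0.0281), a call lost without biliary library 1 (adjusted p = 0.0736), biliary library 2 (adjusted p = 0.083), reprogrammed library 2 (adjusted p = 0.0561) or reprogrammed library 3 (adjusted p = 0.0955).

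Wfdc18, Ctse, Nos2 and Slc12a2 were likewise chosen after their values were seen. Wfdc18, a secreted protein with a WAP domain, was 101, 98.9 and 105 against 232, 236 and 250.2, with each group tight, and fell by 1.23 (0.0358). Ctse, for cathepsin E, was 16.8, 17.7 and 34.1 against 37.3, 38.4 and 75.5, separate between the groups, with an untreated biliary mean of 0.144. Nos2, the inducible nitric oxide synthase, was 7.74, 3.68 and 4.98 against 15.8, 8.75 and 11.2, with 0.0112 in untreated ducts. Ctse fell by 1.10 (0.0208), Nos2 by 1.01 (0.0128) and Slc12a2 by 1.02 (0.0267). Ctse lost its call without biliary library 3 (adjusted p = 0.0933), reprogrammed library 1 (difference -0.93) or reprogrammed library 2 (adjusted p = 0.0928), Nos2 without biliary library 1 (difference -0.80), biliary library 3 (adjusted p = 0.0505), reprogrammed library 2 (adjusted p = 0.0565) or reprogrammed library 3 (difference -0.98) and Slc12a2 without biliary library 1 (adjusted p = 0.0757), biliary library 3 (adjusted p = 0.0984), reprogrammed library 2 (adjusted p = 0.121) or reprogrammed library 3 (adjusted p = 0.0869). Wfdc18 lost it without biliary library 1 (adjusted p = 0.063), biliary library 2 (adjusted p = 0.07), biliary library 3 (adjusted p = 0.123), reprogrammed library 1 (adjusted p = 0.056), reprogrammed library 2 (adjusted p = 0.111) or reprogrammed library 3 (adjusted p = 0.0791). For each of these genes every reprogrammed library was above every untreated biliary and DDC hepatocyte library.

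**Figure D4:**
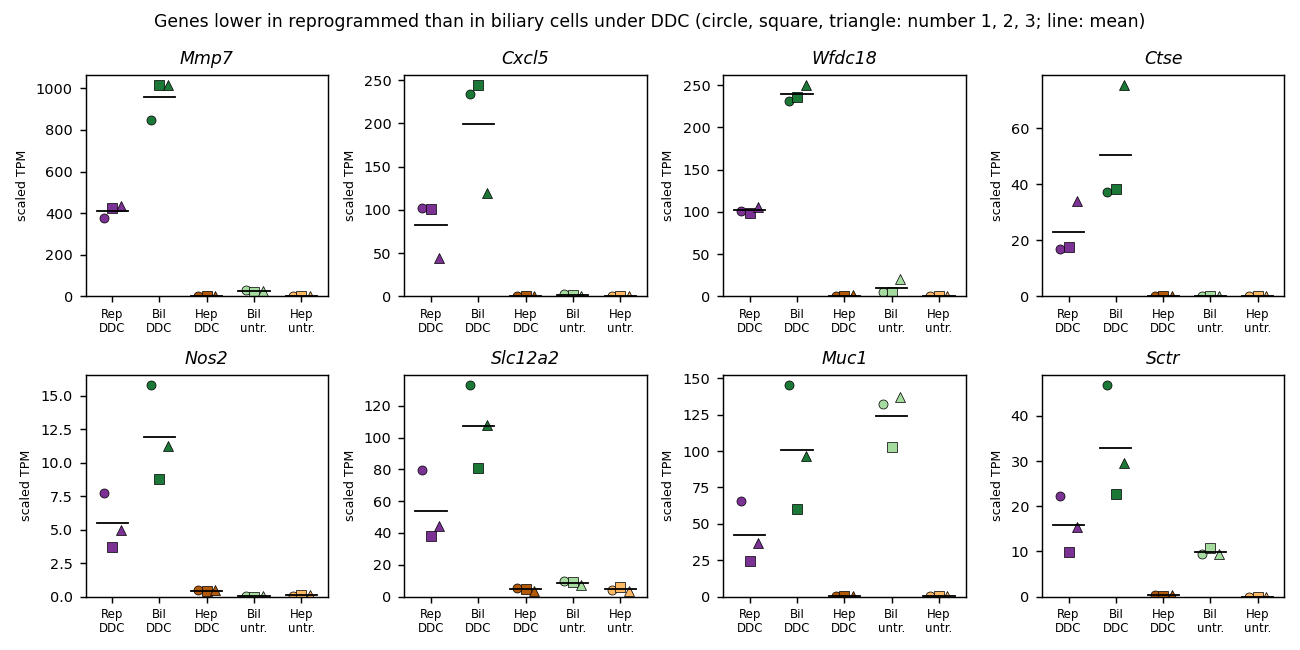
Scaled TPM (y axis, from 0, a separate scale for each gene) of 8 genes that fell, in every library of the 5 groups on the x axis, with symbols for libraries 1, 2 and 3 and lines for means of 3. Mmp7, Cxcl5, Wfdc18, Ctse, Nos2 and Slc12a2 are low in untreated biliary cells, while Muc1 is as high there as under DDC, and Muc1, Nos2 and Sctr show reprogrammed library 1 near the lowest biliary value.

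Of 12 lists of epithelial and signalling genes with 259 members tested, 18 fell and 2 rose, against 0.734 and 2.78 percent of all genes. The 18 became 8 without biliary library 3 and 7 without reprogrammed library 2. Of 13 Notch pathway genes 0 were called by limma (median -0.29; 5 at an unadjusted p under 0.05). Hes1, the target that Notch raises in ducts, was 85.1, 90.1 and 119 against 112, 161 and 165, with -0.56 (adjusted p = 0.395). The reprogrammed Hes1 values overlapped with biliary library 1. Of 23 YAP/TAZ targets 1 fell (median -0.36), Ankrd1, a stretch-induced ankyrin repeat gene, at 90.0, 67.8 and 63.3 against 144, 167 and 146. The groups were separate and it fell by 1.05 (0.0199), while Ctgf, the growth factor target of YAP, did not pass (-0.29, adjusted p = 0.431). With the library number as a block 1 further YAP target was higher, Nt5e, at 1.05 (adjusted p = 0.0925 without the block and 0.0161 with it). Ankrd1 lost its call without biliary library 2 (adjusted p = 0.0516), biliary library 3 (adjusted p = 0.0703), reprogrammed library 2 (adjusted p = 0.079) or reprogrammed library 3 (adjusted p = 0.066).

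Of 22 TGF-beta pathway genes 2 fell (median -0.37). Itgb6, whose integrin activates TGF-beta on epithelium (chromosome 2, 60598292 to 60722643), was 12.4, 12.7 and 16.5 against 27.8, 33 and 45.8, separate between the groups, and fell by 1.28 (0.00298) with each library left out in turn. Thbs1, for thrombospondin 1, fell by 1.10 (0.0136). Of 16 genes of the EGF family and Met 0 were called by limma (median -0.02; 5 at an unadjusted p under 0.05), with Erbb2 at -0.77 (adjusted p = 0.0137) and Nrg1 at 0.90 (0.0129), both under the size threshold. Of 21 chemokines and NF-kB targets 2 fell, Cxcl5 and Cxcl2 (by 1.15, 0.0138), with a median of -0.46. Of 21 basement membrane and matrix genes 3 fell, the laminin chains Lama3, Lamb1 and Lamb3 (by 1.05, 1.03 and 1.01), with a median of -0.42. Of 22 integrins and tetraspanins 2 fell, Itgb6 and Tspan8 (median -0.46). Thbs1 lost its call without biliary library 2 (difference -0.9996), biliary library 3 (adjusted p = 0.0704) or reprogrammed library 2 (adjusted p = 0.0548), and Cxcl2 without biliary library 2 (difference -0.96). Lama3 lost it without biliary library 3 (difference -0.84) or reprogrammed library 1 (difference -0.98), Lamb1 without biliary library 2 (difference -0.98), biliary library 3 (difference -0.89) or reprogrammed library 1 (difference -0.99) and Lamb3 without biliary library 2 (adjusted p = 0.0597), biliary library 3 (adjusted p = 0.126), reprogrammed library 1 (adjusted p = 0.0547) or reprogrammed library 2 (adjusted p = 0.104).

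**Figure D5:**
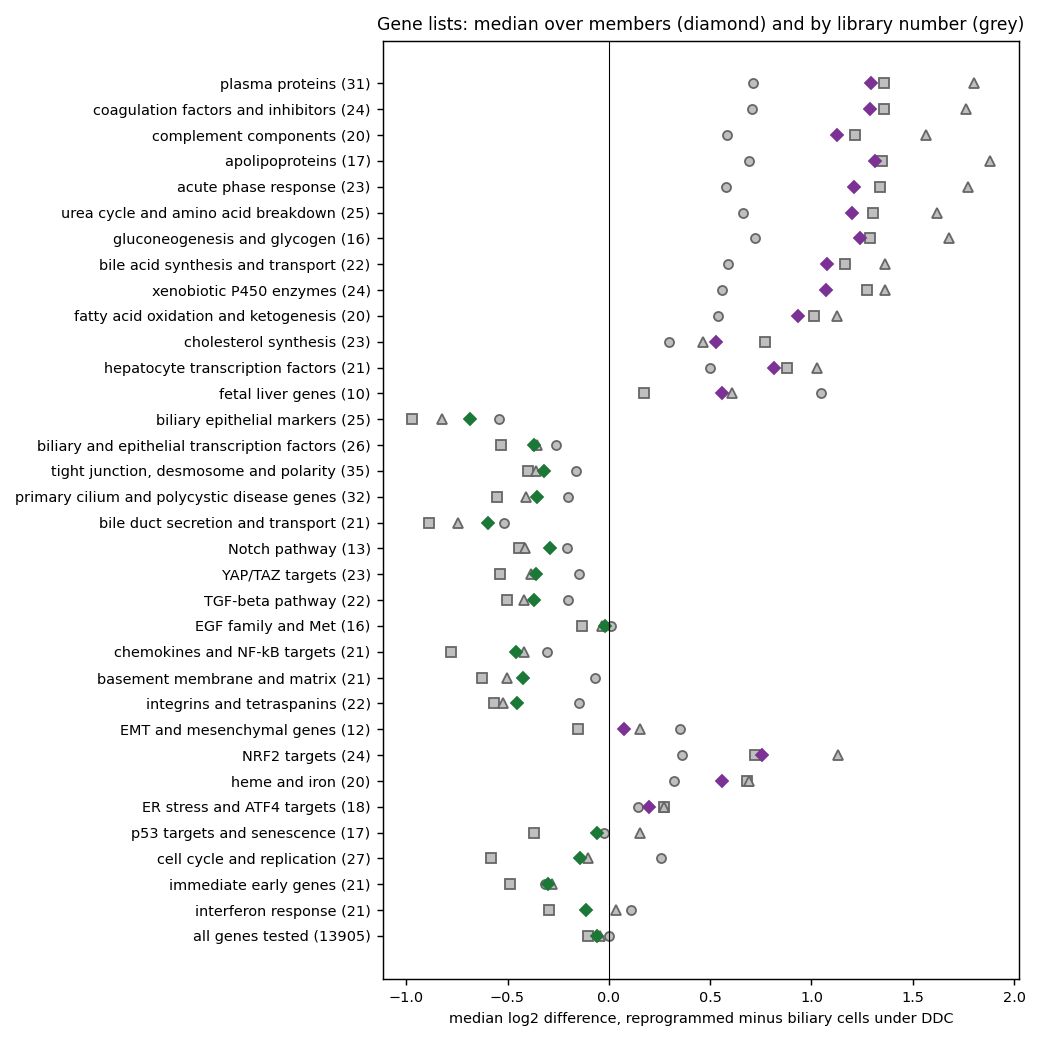
Median log2 difference of each gene list (x axis), reprogrammed minus biliary cells under DDC, with the number of genes tested in brackets; diamonds are the median of the fitted differences, purple above 0 and green below, and grey circles, squares and triangles are the medians between libraries of number 1, 2 and 3. The 12 hepatocyte lists above the fetal genes lie to the right of 0 at every number, from 0.71 to 1.80 for plasma proteins, and number 1 gives the smallest value in each of them.

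Cdh2, for N-cadherin of hepatocyte junctions (chromosome 18, 16588877 to 16809246), had the smallest adjusted p of the genes that rose. It was 49, 46.7 and 51.1 in reprogrammed and 20.8, 22.9 and 18.9 in biliary libraries, and DDC hepatocytes held 76, 63.6 and 65.1. The 3 groups were separate and the spread within each was narrow, and Cdh2 rose by 1.19 (SE 0.09, adjusted p = 0.00014). It was called in the fit of the 6 libraries alone (adjusted p = 0.0473), in all 6 fits without 1 library, and as the only gene in a test against a difference of 0.5. In the TPM as deposited its difference was 0.90, under the size threshold, and Cdh2 was not called. Its reprogrammed mean was 71.7 percent of the DDC hepatocyte mean, above the median of 40.2 percent of the 175 hepatocyte function genes. Its biliary mean, at 30.6 percent, was likewise above their biliary median of 16.7 percent. The difference of Cdh2 between the groups was close to their median difference of 1.20. Cdh2 itself was a hepatocyte gene in untreated cells, at 65.5, 67 and 67.9 in hepatocytes and 19.5, 19.9 and 19.7 in biliary cells. Of 12 genes of epithelial-mesenchymal transition tested, Cdh2 alone rose and 0 fell, with a median of 0.07 that was -0.07 in the TPM as deposited. Vim, for the intermediate filament vimentin, was 84.2, 36 and 79.9 against 19.2, 34.4 and 46.6 and differed by 0.97 (adjusted p = 0.151), with reprogrammed library 2 inside the biliary range.

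F2r, for the thrombin receptor PAR1 (chromosome 13, 95601803 to 95618487), was 15.8, 14.4 and 16.9 in reprogrammed and 4.72, 5.02 and 4.56 in biliary libraries. Both groups were tight and apart, and F2r rose by 1.53 (SE 0.27, adjusted p = 0.00745), again with any 1 library left out. DDC hepatocytes overlapped with the reprogrammed values, at 18.4, 14.6 and 10.5. Unlike most genes that rose, F2r was not called in the untreated comparison.

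In a group of 12 genes that rose, the reprogrammed mean was above both other DDC means. To place them, reprogrammed cells were set beside DDC hepatocytes, a comparison that shares the reprogrammed libraries and in which 1906 genes (13.7 percent) were higher and 802 (5.77 percent) lower, or 4240 and 9 in the TPM as deposited. Tbx1, a T-box factor of embryonic pharynx and mesoderm (chromosome 16, 18580979 to 18590671), was 20.7, 5.83 and 16.5 in reprogrammed, 1.34, 0.246 and 0.765 in biliary and 1.84, 0.443 and 0.471 in hepatocyte libraries. All 3 reprogrammed values were above the other 6, with number 2 the lowest, and untreated cells were under 1. Tbx1 rose by 2.99 (SE 0.39, adjusted p = 0.00289), with any 1 library left out, and its difference from DDC hepatocytes was 2.92 (adjusted p = 6.86e-05).

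Gpc3, a cell-surface proteoglycan of fetal liver (chromosome X, 52272426 to 52613950), was 7.76, 10.1 and 17.6 against 3.11, 2.76 and 3.01, and 1.46, 5.78 and 5.49 in DDC hepatocytes. Each reprogrammed value exceeded the other 6, and Gpc3 rose by 1.62 (adjusted p = 0.0206) and was higher than in hepatocytes by 1.35 (0.0147). Scn7a, an atypical sodium channel gene, was 15, 4.81 and 11.9 against 3.82, 1.79 and 4.3, and 0.555, 0.0958 and 0.12 in hepatocytes. The groups did not overlap, and it rose by 1.36 (0.0201) and was higher than in hepatocytes by 3.10 (1.05e-05). Ms4a4d, Msc, a bHLH factor, and Col12a1, a fibril-associated collagen, also passed against both. For Ms4a4d the values were 15.2, 1.18 and 8.6 against 0.367, 0.31 and 1.04, with most of the difference in libraries 1 and 3, and reprogrammed library 2 lay within the DDC hepatocyte range. Msc was 6.02, 0.977 and 1.67 against 0.455, 0.257 and 0.503, and rose by 1.25 (0.0278), with all reprogrammed values above. Gpc3 lost its call without biliary library 3 (adjusted p = 0.0762), reprogrammed library 2 (adjusted p = 0.0653) or reprogrammed library 3 (adjusted p = 0.0766), Scn7a without biliary library 2 (adjusted p = 0.0613) or reprogrammed library 3 (adjusted p = 0.0689) and Ms4a4d without biliary library 1 (adjusted p = 0.069), biliary library 2 (adjusted p = 0.0777), biliary library 3 (adjusted p = 0.0808), reprogrammed library 1 (adjusted p = 0.0808) or reprogrammed library 3 (adjusted p = 0.101). Msc lost it without biliary library 2 (adjusted p = 0.0699), biliary library 3 (adjusted p = 0.0847) or reprogrammed library 1 (difference 0.70), and Col12a1 without biliary library 1 (difference 0.86) or reprogrammed library 3 (adjusted p = 0.0543).

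Fetal liver genes were 10 in the test, of which 2 rose, 1 fell and the median was 0.56. Of all genes tested, 2.78 percent rose and 0.734 percent fell. Counts this small describe the called genes and not the list. Afp, for alpha-fetoprotein (chromosome 5, 90490737 to 90508907), was 3.91, 4.53 and 5.96 against 1.41, 2.21 and 0.78, with 4.26, 6.21 and 9.11 in DDC hepatocytes. Reprogrammed and biliary values were separate, reprogrammed and hepatocyte values overlapped, and Afp rose by 1.26 (adjusted p = 0.0129), a call lost without biliary library 3 (adjusted p = 0.0653). Gpc3 was the other that rose, and Plagl1, an imprinted zinc finger gene, fell by 1.13 (0.0249), a call lost without biliary library 1 (adjusted p = 0.0641), biliary library 3 (adjusted p = 0.062), reprogrammed library 2 (adjusted p = 0.114) or reprogrammed library 3 (adjusted p = 0.0766). H19, an imprinted long RNA, had means of 25.9 ± 25.8 and 4.28 ± 4.11 (SD, n = 3) and was not called at 2.19 (adjusted p = 0.0869, or 0.00586 with the library number as a block). Outside that list, Spink1, a trypsin inhibitor, was 45.8, 29 and 42.2 against 18, 4.6 and 2.26, with 111, 18.4 and 39.8 in DDC hepatocytes and under 2 in untreated cells. Its groups were separate and it rose by 2.48 (0.0215), a call lost without biliary library 2 (adjusted p = 0.056), biliary library 3 (adjusted p = 0.105), reprogrammed library 2 (adjusted p = 0.0606) or reprogrammed library 3 (adjusted p = 0.062). Ntrk2, the receptor for brain-derived neurotrophic factor, was 4.57, 4.87 and 9.28 against 1.37, 1.99 and 1.95, separate as well, and rose by 1.34 (0.0154), a call lost without biliary library 3 (adjusted p = 0.0571) or reprogrammed library 3 (adjusted p = 0.0528).

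Stress lists were mixed, and 2.78 percent of all genes tested rose. Where a list held 1 call, that call describes the gene and not the list. Of 24 NRF2 targets 3 rose (5 with the block; median 0.76), namely Gsta2 and Gstm1, glutathione transferases (by 1.35 and 1.24), and the quinone reductase Nqo1 (by 1.18). The adjusted p of these 3 was 0.033, 0.0198 and 0.0324. Gsta2 lost its call without biliary library 3 (adjusted p = 0.141), reprogrammed library 2 (adjusted p = 0.147) or reprogrammed library 3 (adjusted p = 0.0666), Gstm1 without biliary library 3 (adjusted p = 0.0796) or reprogrammed library 2 (adjusted p = 0.0871) and Nqo1 without biliary library 1 (adjusted p = 0.0755), biliary library 3 (adjusted p = 0.144), reprogrammed library 2 (adjusted p = 0.145) or reprogrammed library 3 (adjusted p = 0.0974). Gstm1 was 3541, 5965 and 3793 against 2322, 2390.2 and 1101, with no overlap. In contrast G6pdx, of the pentose phosphate path, differed by -0.77 (adjusted p = 0.0215), under the size threshold. Of 20 heme and iron genes 1 rose (4 with the block; median 0.56), Blvrb, a biliverdin reductase, at 101, 135 and 123 against 57, 59.5 and 29.5. Its values were separate and it rose by 1.33 (0.00624) with any 1 library left out, while Alas1, the first enzyme of heme synthesis, did not pass (0.98, adjusted p = 0.104). Of 18 genes of ER stress and ATF4 1 rose, Shmt2, a mitochondrial folate enzyme (1.04, 0.00433), a call lost on size without biliary library 3 (difference 0.90) or reprogrammed library 2 (difference 0.92). The median of the list was 0.20, and -0.09 in the TPM as deposited.

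Lists without a call by limma at this rule were p53 targets and senescence (17 genes, median -0.06), cell cycle and replication (27, median -0.14), interferon response (21, median -0.11) and immediate early genes (21, median -0.30). At an unadjusted p under 0.05 they held 2, 0, 0 and 6 genes. Cdkn2a, the p16 and p19 locus, passed on p alone at -0.85 (adjusted p = 0.021), and Mki67, for Ki-67 of cycling cells, had means of 9.59 ± 4.9 and 11.4 ± 2.1 (SD, n = 3; adjusted p = 0.811). Fosb, an AP-1 subunit, was lower by the block fit only (-1.11, adjusted p = 0.125 without the block and 0.0444 with it).

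Of the markers of other liver cells, 1 was called. The summed level of 16 macrophage markers was 335 to 479 in reprogrammed and 515 to 689 in biliary libraries, most of it Cd14. Of the 16, Timd4 and Cd163 were under 1 in all 6 libraries, while other Kupffer cell markers reached 8.72 (Cd5l), 5.15 (Marco) and 19.3 (C1qb), each in biliary library 3. For 16 endothelial markers the sums were 14.5 to 29.5 and 20.5 to 48.9, with Robo4 and Flt1 under 1 in all 6 and Clec4g and Fcgr2b the highest, at up to 10.6 and 9.73 in biliary library 3. For 16 stellate and fibroblast markers they were 313 to 496 and 459 to 734, most of it Rgs5, with Des and Thy1 under 1 in all 6. Rgs5 was also a biliary gene in untreated cells, so this sum does not single out stellate cells or fibroblasts. Dcn of fibroblasts was 3.85, 12.1 and 32.5 in reprogrammed libraries and 3.33, 12.5 and 43.5 in biliary ones, highest at number 3 in both. Bgn, the proteoglycan biglycan, was the called member of that list and fell by 1.01 (0.0104), a call lost without biliary library 1 (difference -0.97), biliary library 3 (adjusted p = 0.0557) or reprogrammed library 2 (adjusted p = 0.0514). Bgn too was a biliary gene in untreated cells. All 15 lymphoid markers were under 1 in all 6 libraries. Neutrophil markers summed to 15.3 to 36.0 and 23.8 to 33.1, and erythroid markers to 11.1 to 16.7 and 13.6 to 19.04, where Alas2 was higher by the block fit (1.09, adjusted p = 0.0568 without and 0.00588 with it). Mesothelial markers summed to 47.8 to 66.2 and 103 to 153, most of it Msln, with 5 of 7 under 1 in all 6, and Msln did not pass (adjusted p = 0.114). Msln was a biliary gene in untreated cells as well. The part of other cells in the results was not tested.

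Small RNA genes gave the most extreme fitted differences and the least certain values. Mir25 rose, at 42.5, 23.1 and 40.0 against 0, 20.2 and 0, and Mir7013 fell, being listed at 0 in all 3 reprogrammed libraries against 37.9, 21.4 and 55.4 in biliary ones. Mir7024 rose, at 37.5, 0 and 22.1 against 0 in every biliary library, and Mir5121 fell, at 0 in all reprogrammed libraries against 18.8, 53 and 11. A TPM divides by transcript length, so very short genes reach such levels from few reads, and no fold is given against a group listed at 0. Mir25 lost its call without biliary library 1 (adjusted p = 0.0529), biliary library 3 (adjusted p = 0.0951), reprogrammed library 2 (adjusted p = 0.0561) or reprogrammed library 3 (adjusted p = 0.0547), Mir7013 without biliary library 3 (adjusted p = 0.0686) or reprogrammed library 2 (adjusted p = 0.0561), Mir5121 without reprogrammed library 2 (adjusted p = 0.0555) and Mir7024 without biliary library 1 (adjusted p = 0.0775), biliary library 2 (adjusted p = 0.0836), biliary library 3 (adjusted p = 0.13), reprogrammed library 1 (adjusted p = 0.11) or reprogrammed library 3 (adjusted p = 0.141). The ribosomal precursor Rn45s (816, 674 and 563 against 1568, 1810.2 and 1609) and Lars2 (237, 213 and 184 against 483, 552 and 423) were the 2 genes that fell while being called as hepatocyte genes in untreated cells.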

How the data were processed

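Total RNA of sorted mouse liver cells was sequenced. The deposited values are gene TPM from Salmon for mm10, per the submitters' processing notes; the version and annotation are not given in the sources used here. Genes with at least 1 TPM in at least 3 of 15 libraries were kept (13905). Each library was divided by the median of its ratios to the geometric mean over 11924 genes, and log2(scaled TPM + 1) was analysed. TPM are not counts, so no count test was used and no sequencing depth is known. limma 3.58.1 in R 4.3.3 fitted the 5 group means with a mean-variance trend (10 residual degrees of freedom). Benjamini-Hochberg adjustment ran over all genes kept. A gene was called at an adjusted p under 0.05 where its difference was 1 or more in size. An exact permutation of 3 against 3 libraries cannot go below 0.1 and was not used.

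The library numbers were checked for pairing. Deviations from the group means correlated across genes at 0.208 to 0.456 between reprogrammed and biliary libraries of the same number. Between other numbers the range was -0.476 to 0.0344. Deviations from a group mean cancel within the group, so positive values at the same number push the others down. The ranges are therefore not independent of each other. The labels do not say that a number marks 1 animal, and the number was used as a block in an alternative fit. The main fit did not use the numbers, so every adjusted p not marked as from the block ignores them. The fit with the number as a block called 689 genes and all 488 called without it.

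Named genes were a fixed marker set, the 10 largest called differences on either side among genes at 10 scaled TPM or more without overlap, up to 4 called members of each list, up to 10 in each direction at 5 scaled TPM or more that untreated cells did not call or called the other way, and up to 8 called on 1 side of both DDC groups. List members that missed the test and are named as contrasts, and those said to be picked by value, were chosen after their values were seen. A few of these genes are not reported here. The members and lists were chosen with earlier results of these data known. Lists are described by counts and medians and were not tested. Gene positions are from GENCODE M21 on GRCm38. Promoters are from RefSeq (GRCm38.p6), and 61 of the 109 named genes had 1. The fit was tested on simulated data. Alternatives were other scalings, pseudocounts, filters, libraries in the fit, moderation, call rules, the block and leaving out each library. Figures were drawn with matplotlib 3.10.9.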

Additional observations from a re-analysis of the deposited data

How the results depend on the processing

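Against 488 genes called between reprogrammed and biliary cells, a pseudocount of 5 gave 298, the 6 libraries alone 6, the 9 DDC libraries 7, the replicate block in the 6 libraries alone 790 (465 of them shared), the adjusted p without a size threshold 2053, and a limma test against a difference of 0.5 gave 1. Leaving out 1 library gave 103 to 830. TPM as deposited gave 696 (120 higher, 576 lower), upper quartile scaling 489, quantile normalization 525, a pseudocount of 0.1 517, no filter 425, a filter of 5 TPM 476, sample weights 645, no trend 485, robust moderation 492 and the replicate block within treatment over 15 libraries 689. All 488 genes kept their sign in each of these settings, except that the filter of 5 TPM tested 473 of them. No trend, robust moderation, the adjusted p alone and the test against 0.5 leave each difference unchanged. The genes were also selected for a difference of at least 1 in size, so kept signs were likely in advance and add little support. The untreated comparison went from 5172 to 7820 genes in TPM as deposited and ranged from 5017 to 5276 with 1 library left out. Reprogrammed cells against DDC hepatocytes went from 2708 to 4249 in TPM as deposited and ranged from 2246 to 3298 with 1 library left out. The cause of these moves was not tested. The untreated groups, which the fits of 6 and 9 libraries leave out, had a median SD per gene of 0.114 and 0.148 on the log2 scale, against 0.196 to 0.248 in the DDC groups. For the 109 named genes, 1746 values under alternatives stayed on the same side of the threshold, 640 no longer passed, 9 newly passed and 0 reversed. These counts include the settings that cannot change a sign. The replicate block within treatment over 15 libraries changed no call of a gene that the rule names. The block in the 6 libraries alone removed the call of 9 named genes and added that of 1. Without read totals, no counting error can be given, and genes near 1 TPM are the least certain.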
